A study of Mus musculus with 6 samples.

Results

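Of 54146 genes counted in 4T1 cells, 53 protein-coding genes were read in both wild-type (WT) libraries and were silent, or nearly so, in both clones in which Mki67 had been knocked out (KO). A gene was selected on its measured level: 3 CPM or more (reads of a gene scaled to library size by the TMM method) in both WT libraries, and a mean under 0.2 CPM in KO clone 1 and in KO clone 2. In all, 66 genes met these thresholds. Of these, 5 lay on the X chromosome and were left out, as were 8 further genes by name (Hexa, Mal2, Vldlr, Ly6e, Slc40a1, Bmp7, Rragd and Stc2), which are silent too but count among the other genes where these are given for comparison. With them, 61 autosomal genes, or 0.60%, met the thresholds. The 53 genes made up 0.521% of the 10170 autosomal genes that reached 3 CPM in both WT libraries. Because the level in the clones chose them, their loss is described here without a test, and tests are given only for their neighbours, their paralogues and the difference between the clones.

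4T1 is a mammary carcinoma line of BALB/c mice. The 6 libraries of ribosomal-RNA-depleted total RNA fell into 3 groups of 2: KO clone 1 and KO clone 2, both Mki67-/-, and WT cells. Each KO group is 1 clone, and nothing in the labels tells whether its pair of libraries stems from 1 culture or more, so a p-value here rests on the spread within such pairs, which may be technical. What a clone carries besides the Mki67 mutation cannot be told apart from the mutation within either clone, and the labels do not call the WT cells a clone.

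Mki67 encodes Ki-67, a nuclear protein of proliferating cells that coats mitotic chromosomes. A gene is called silent here when its mean level lay under 0.2 CPM in each clone, which can leave it a few reads. In mammals, promoters rich in CpG dinucleotides are usually unmethylated and active in many tissues, and methylation of such an island goes with stable silencing. CpG-poor promoters are more often methylated wherever the gene is off and serve genes of particular tissues. Paralogues, which arose by gene duplication, can keep overlapping functions, so their level is given beside each silent gene.

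The targeted gene was still read in each clone. Mki67 had 85.8 and 103 CPM in KO clone 1 and 39.9 and 52.7 CPM in KO clone 2, against 736 and 647 CPM in WT. Its log2 change was -2.88 ± 0.154 in KO clone 1 (SE, adjusted p = 1.14e-08) and -3.90 ± 0.161 in KO clone 2 (adjusted p = 1.46e-09) by edgeR's quasi-likelihood test, with p-values adjusted over all 13755 genes tested. The libraries held 17103941 to 22658499 gene reads in the clones, against 10428970 and 16852152 in WT, so that 3 reads corresponded to 0.130 to 0.177 CPM in the clones, against 0.296 and 0.177 CPM in WT. The labelled mammary epithelium was checked by its markers. Of 14 markers of mammary epithelium, 13 had a read in each group, Krt5 being at 0. Among the 13, Ehf was barely read in 2 groups: it averaged 0.0661 CPM in KO clone 1 and 2.10 CPM in KO clone 2, against 0.0590 CPM in WT. Of the 13 tested, 6 (46.2%) were higher and 2 (15.4%) lower (Elf3 and Cldn4) in the mean of both clones against WT. Over all genes tested, 26.5% were higher and 29.3% lower. Krt18, a luminal keratin, averaged 2009 CPM in KO clone 1 and 2336 CPM in KO clone 2, against 1390 CPM in WT, while Cldn4, a claudin of tight junctions, averaged 352 CPM in KO clone 1 and 404 CPM in KO clone 2, against 646 CPM in WT.

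The 53 genes differed widely in the sequence at their start, as 7 promoters show. Each covers 250 bases before to 50 after the gene's start in RefSeq (build GRCm38.p6), read 5′ to 3′ on the gene's strand, with every CpG in capitals. Iqgap2 (chr13:95891873-95892172, minus strand), Rasef (chr4:73790553-73790852, minus strand) and Peli2 (chr14:48120619-48120918, plus strand) held the most CpGs, with 41, 38 and 38. GENCODE puts the start of Rasef at 73790994, so by that annotation the Rasef window lies inside the gene and not before its start.
Iqgap2: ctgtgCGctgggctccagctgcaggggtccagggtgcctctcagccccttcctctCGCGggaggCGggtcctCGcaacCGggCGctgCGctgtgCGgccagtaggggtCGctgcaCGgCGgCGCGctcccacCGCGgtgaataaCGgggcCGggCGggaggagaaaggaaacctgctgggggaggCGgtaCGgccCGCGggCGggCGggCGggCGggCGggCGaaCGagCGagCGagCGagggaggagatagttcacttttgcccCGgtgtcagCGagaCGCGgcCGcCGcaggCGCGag
Rasef: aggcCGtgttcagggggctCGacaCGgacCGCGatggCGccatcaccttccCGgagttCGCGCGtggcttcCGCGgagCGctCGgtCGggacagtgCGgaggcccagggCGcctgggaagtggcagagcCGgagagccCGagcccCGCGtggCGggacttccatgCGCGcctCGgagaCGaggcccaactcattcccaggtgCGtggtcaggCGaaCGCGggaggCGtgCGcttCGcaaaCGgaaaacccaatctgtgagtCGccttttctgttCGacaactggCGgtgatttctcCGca
Peli2: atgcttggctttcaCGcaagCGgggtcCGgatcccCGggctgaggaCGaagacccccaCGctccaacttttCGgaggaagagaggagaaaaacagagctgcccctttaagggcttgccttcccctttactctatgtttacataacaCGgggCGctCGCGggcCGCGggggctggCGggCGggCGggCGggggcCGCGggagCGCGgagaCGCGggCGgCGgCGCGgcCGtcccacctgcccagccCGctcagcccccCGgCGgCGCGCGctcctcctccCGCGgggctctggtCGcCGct
Eomes (chr9:118477939-118478238, plus strand) was the most abundant gene in WT with no read in any clone library, and its promoter held 10 CpGs.
Eomes: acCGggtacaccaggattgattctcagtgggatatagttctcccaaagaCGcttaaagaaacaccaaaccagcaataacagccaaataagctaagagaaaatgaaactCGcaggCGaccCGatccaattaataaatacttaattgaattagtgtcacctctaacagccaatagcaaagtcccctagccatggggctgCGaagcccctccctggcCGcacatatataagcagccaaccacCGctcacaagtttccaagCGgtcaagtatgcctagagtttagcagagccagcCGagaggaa
Il18 (chr9:50554450-50554749, plus strand), Gsta1 (chr9:78230419-78230718, plus strand) and Akr1c13 (chr13:4190937-4191236, plus strand) were among the genes with the fewest, with 1, 2 and 2.
Il18: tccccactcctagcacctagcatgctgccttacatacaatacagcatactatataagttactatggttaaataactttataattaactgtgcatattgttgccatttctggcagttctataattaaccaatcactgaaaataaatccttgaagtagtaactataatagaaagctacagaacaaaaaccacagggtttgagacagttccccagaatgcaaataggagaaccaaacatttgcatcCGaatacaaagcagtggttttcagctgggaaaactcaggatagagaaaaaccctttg
Gsta1: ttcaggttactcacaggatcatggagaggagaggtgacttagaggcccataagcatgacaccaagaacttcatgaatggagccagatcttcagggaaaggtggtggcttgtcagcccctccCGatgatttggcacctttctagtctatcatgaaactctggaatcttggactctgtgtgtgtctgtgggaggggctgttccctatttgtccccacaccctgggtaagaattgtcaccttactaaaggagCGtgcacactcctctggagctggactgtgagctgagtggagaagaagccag
Akr1c13: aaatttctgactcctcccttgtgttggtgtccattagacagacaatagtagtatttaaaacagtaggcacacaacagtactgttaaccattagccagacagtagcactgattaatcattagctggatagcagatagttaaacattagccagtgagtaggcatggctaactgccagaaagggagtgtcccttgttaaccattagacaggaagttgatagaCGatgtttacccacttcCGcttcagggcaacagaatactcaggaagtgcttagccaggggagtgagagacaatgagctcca

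The GC box (GGGCGG, either strand), which the factor Sp1 can bind, was in the Iqgap2 and Peli2 promoters and not in the other 5 shown. The exact TATA motif (TATAAA, either strand) was in the Il18 promoter alone among these 7, as TTTATA. Variants were not counted, such as the TATATAAG that the Eomes and Il18 promoters hold, so the motif's absence does not mean that a promoter lacks a TATA box. Of all 32851 mouse promoters in the RefSeq table, 35.7% held the GC box and 13.6% the TATA motif. A motif match describes these letters and no binding.

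Summed over the 53 genes, the clones held 66 and 57 reads in KO clone 1 and 35 and 65 reads in KO clone 2, against 3669 and 6412 reads in WT. As summed CPM this was 2.91 and 2.56 in KO clone 1 and 2.06 and 2.81 in KO clone 2, against 362 and 379 in WT. For 10 of the genes no clone library held a read, 18 had 1 to 3 reads over the 4 clone libraries, and 25 had 4 to 12. The highest value in a single clone library was 6 reads, or 0.264 CPM, for Ntn4. In WT the genes were read at low to moderate levels: the mean ran between 3.15 and 24.4 CPM with a median of 5.60 CPM, against a median of 37.0 CPM for the other 10117 autosomal genes at 3 CPM or more in both WT libraries. Per kilobase of exon the median WT level was 1.51 CPM, against 7.93 CPM for those other genes. In bulk RNA, fewer cells that express a gene and less RNA in each cell cannot be told apart.

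**Figure D1:**
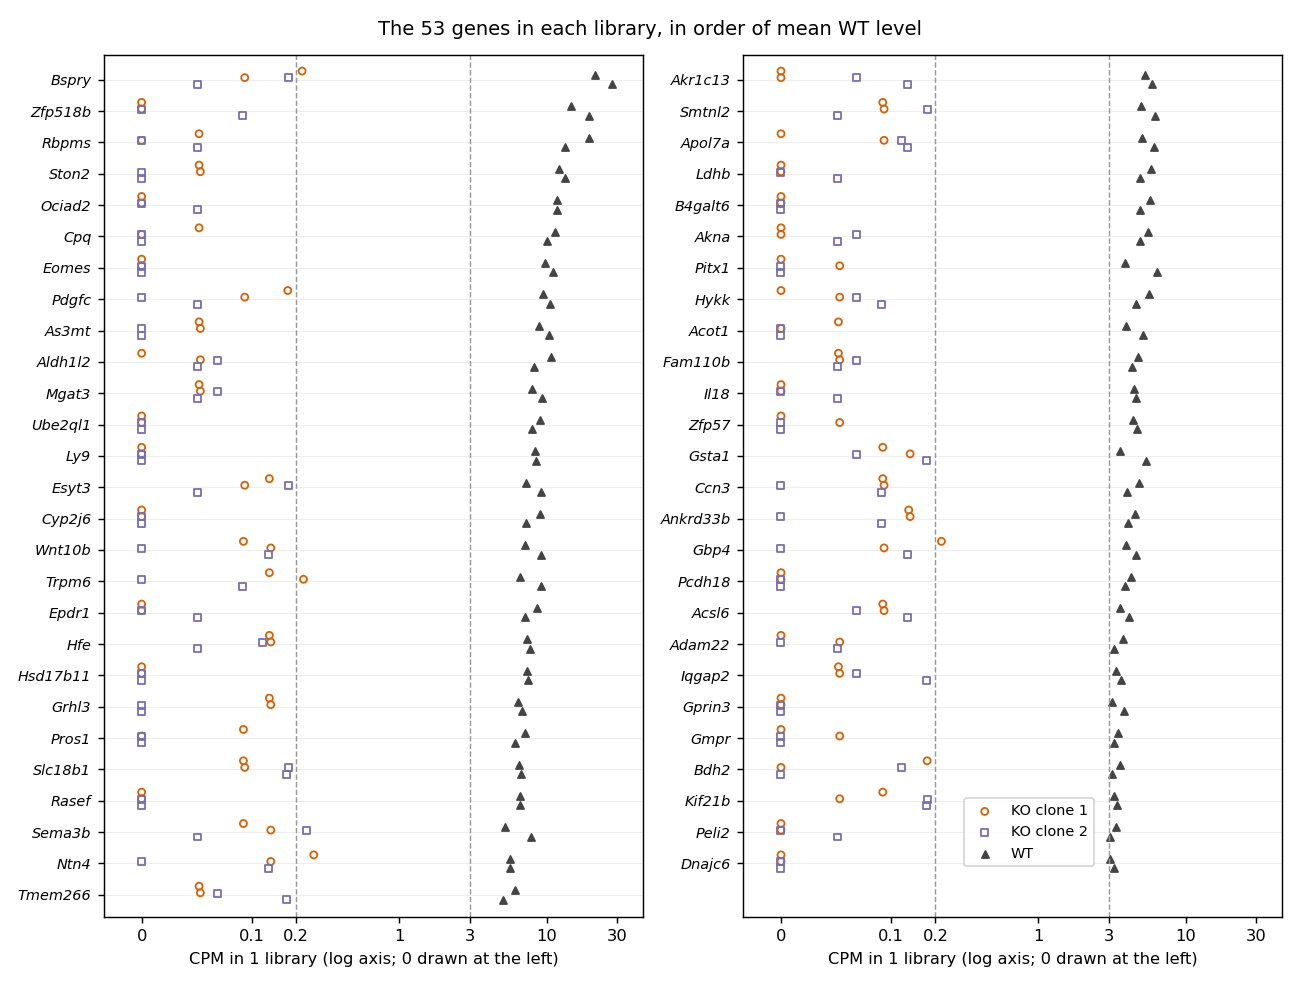
CPM of each of the 53 genes in each of the 6 libraries, on a log axis with 0 drawn at the left. Dashed lines mark the selection thresholds of 0.2 and 3 CPM. The clone libraries sit at or below 0.264 CPM and the WT libraries above 3 CPM for every gene, which is how the genes were chosen.

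Transcriptional regulators were among the more abundant. Zfp518b, a zinc finger protein, had 0 and 0 CPM in KO clone 1 and 0 and 0.0863 CPM in KO clone 2, against 14.6 and 19.5 CPM in WT. Pooled over libraries, its 2 clone reads put it 751-fold lower in the clones (95% counting interval 207 to 6220). Eomes, a T-box factor of trophoblast, mesendoderm and cytotoxic lymphocytes, had no read in any clone library, against 9.67 and 11.1 CPM in WT, and was at least 300-fold lower by a floor of 3 reads over the 4 clone libraries. Rbpms, an RNA-binding splicing regulator of muscle, had 0.0441 and 0 CPM in KO clone 1 and 0 and 0.0432 CPM in KO clone 2, against 19.3 and 13.4 CPM in WT. None of these genes kept more than 2 reads in the clones. Pitx1, a homeobox factor of hindlimb and pituitary, had 0 and 0.0450 CPM in KO clone 1 and 0 and 0 CPM in KO clone 2, against 3.85 and 6.38 CPM in WT. Zfp57, which keeps the methylation of imprinted regions in the embryo, had 0 and 0.0450 CPM in KO clone 1 and 0 and 0 CPM in KO clone 2, against 4.34 and 4.66 CPM in WT. Grhl3, a grainyhead-like factor of surface epithelia, had 0.132 and 0.135 CPM in KO clone 1 and 0 and 0 CPM in KO clone 2, against 6.41 and 6.85 CPM in WT, and is taken up again below for its difference between the clones. Akna, an AT-hook protein, completed this group at 5.52 and 4.90 CPM in WT, with 2 clone reads, both in KO clone 2.

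Secreted ligands and guidance proteins formed a second group. Pdgfc, a ligand of the PDGF alpha receptor, had 0.176 and 0.0899 CPM in KO clone 1 and 0 and 0.0432 CPM in KO clone 2, against 9.47 and 10.6 CPM in WT. Wnt10b, a Wnt ligand of the embryonic mammary rudiment, had 0.0881 and 0.135 CPM in KO clone 1 and 0 and 0.130 CPM in KO clone 2, against 7.10 and 9.09 CPM in WT. Il18, an interleukin released after inflammasome cleavage, had 0 and 0 CPM in KO clone 1 and 0 and 0.0432 CPM in KO clone 2, against 4.44 and 4.61 CPM in WT. The traces that were left differed in spread, since Pdgfc and Wnt10b kept reads in 3 of the 4 clone libraries and Il18 kept 1 read in all. Sema3b, a secreted semaphorin, kept 10 reads, spread over all 4 clone libraries, at 0.0881 and 0.135 CPM in KO clone 1 and 0.236 and 0.0432 CPM in KO clone 2, against 5.23 and 7.85 CPM in WT. Ntn4, a netrin of basement membranes, held the most clone reads of the 53, with 12, and was 40.1-fold lower in the clones (95% counting interval 22.3 to 79.2). Ccn3, a matricellular protein, Pros1, the anticoagulant protein S and a ligand of TAM receptors, and Epdr1, an ependymin-related protein, kept 6, 2 and 1 clone reads. In a list of 120 growth factors and cytokines, 44 genes were autosomal and at 3 CPM or more in both WT libraries, and 3 of these, or 6.82%, were among the 53 (Pdgfc, Wnt10b and Il18), against 0.521% of all such genes. With Bmp7 and Stc2, which were left out by name, 5 of the 44 (11.4%) met the thresholds, against 0.60% of all. These shares are not matched for WT level, where the 53 genes had a median of 5.60 CPM, against 37.0 CPM for the others. The list was drawn up with earlier results of these data known, and the difference in shares was not tested. The rest of the list went both ways: of its 67 genes tested, 26 were lower and 28 higher in the mean of both clones against WT, with a median log2 change of 0.11. Over all genes tested, 29.3% were lower and 26.5% higher in this comparison, with a median of -0.02.

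Enzymes of xenobiotic and small-molecule metabolism formed a further group. Cyp2j6, a cytochrome P450, had no read in any clone library, against 8.97 and 7.26 CPM in WT, and was at least 224-fold lower. As3mt, the methyltransferase of inorganic arsenic, had 0.0441 and 0.0450 CPM in KO clone 1 and 0 and 0 CPM in KO clone 2, against 8.88 and 10.4 CPM in WT. Aldh1l2, the mitochondrial 10-formyltetrahydrofolate dehydrogenase, had 0 and 0.0450 CPM in KO clone 1 and 0.0589 and 0.0432 CPM in KO clone 2, against 10.7 and 8.21 CPM in WT. All 3 lay far apart between clones and WT, with at most 1 read in a clone library. Gsta1, a glutathione S-transferase, had 0.0881 and 0.135 CPM in KO clone 1 and 0.0589 and 0.173 CPM in KO clone 2, against 3.55 and 5.37 CPM in WT. Akr1c13, an aldo-keto reductase, had 0 and 0 CPM in KO clone 1 and 0.0589 and 0.130 CPM in KO clone 2, against 5.23 and 5.85 CPM in WT. The traces of Akr1c13 were all in KO clone 2, but its difference between the clones did not pass the test (adjusted p = 0.0617). Hsd17b11, a short-chain dehydrogenase of lipid droplets, had no clone read, against 7.40 and 7.50 CPM in WT. Of 82 genes in a list of xenobiotic metabolism, 35 were autosomal and at 3 CPM or more in both WT libraries, and 4 of these, or 11.4%, were among the 53 (Aldh1l2, Cyp2j6, Akr1c13 and Gsta1), against 0.521% of all such genes. Of the list's 40 genes tested, 22 were lower and 8 higher in the mean of both clones against WT, with a median log2 change of -0.94, the 4 silent genes included, against 29.3% lower and 26.5% higher of all genes tested. The list was drawn up with its lower level in the clones known, so the count is not independent evidence of that direction. The share of 11.4% is also set against genes not matched for WT level, and the difference was not tested.

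Enzymes of energy and intermediary metabolism were also among the 53. Ldhb, the heart-type lactate dehydrogenase subunit, had 0 and 0 CPM in KO clone 1 and 0 and 0.0432 CPM in KO clone 2, against 5.82 and 4.90 CPM in WT. Acot1, a cytosolic acyl-CoA thioesterase, kept 1 clone read and had 3.94 and 5.14 CPM in WT. Acsl6, a long-chain acyl-CoA synthetase, had 0.0881 and 0.0899 CPM in KO clone 1 and 0.0589 and 0.130 CPM in KO clone 2, against 3.55 and 4.13 CPM in WT. Acot1 and Ldhb were thus down to a single read, while Acsl6 kept a trace in all 4 clone libraries. Gmpr, GMP reductase, Hykk, hydroxylysine kinase, and Bdh2, a short-chain hydroxybutyrate dehydrogenase, kept 1, 4 and 6 clone reads. Of the enzymes that build glycans, Mgat3, which adds the bisecting N-acetylglucosamine, had 0.0441 and 0.0450 CPM in KO clone 1 and 0.0589 and 0.0432 CPM in KO clone 2, against 7.89 and 9.33 CPM in WT, and B4galt6, a lactosylceramide synthase, had no clone read, against 5.72 and 4.84 CPM in WT. Cpq, a secreted carboxypeptidase, had 0.0441 and 0 CPM in KO clone 1 and 0 and 0 CPM in KO clone 2, against 11.3 and 9.98 CPM in WT.

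Membrane proteins, transporters and the trafficking machinery made up most of the remainder. Ly9, a SLAM-family receptor of lymphocytes, had no clone read, against 8.28 and 8.44 CPM in WT. Leukocyte markers went both ways beside it. Ptprc, the pan-leukocyte marker CD45, had 0.0441 and 0.0450 CPM in KO clone 1 and 0.118 and 0.0863 CPM in KO clone 2, against 0 and 0 CPM in WT. Cd68, a macrophage lysosomal protein, had 2.86 and 2.61 CPM in KO clone 1 and 3.47 and 2.16 CPM in KO clone 2, against 15.5 and 10.3 CPM in WT (log2 change -2.21 ± 0.206, adjusted p = 1.14e-06), whereas Cd14 and Csf1r were higher in the mean of both clones. For Cd14 this came from KO clone 2 alone, with an average of 7.48 CPM in KO clone 1 and 20.9 CPM in KO clone 2, against 9.23 CPM in WT. The summed level of 20 leukocyte markers was 12.5 to 13.0 CPM in KO clone 1 and 25.5 to 29.3 CPM in KO clone 2, against 22.6 to 24.3 CPM in WT, and 12, 13 and 14 of the markers were at 0 in these groups, the T-cell marker Cd3e among them in each. Their part in the loss of Ly9 was not tested. Trpm6, a magnesium channel, had 0.132 and 0.225 CPM in KO clone 1 and 0 and 0.0863 CPM in KO clone 2, against 6.61 and 9.21 CPM in WT. Hfe, the class I-like protein mutated in haemochromatosis, had 0.132 and 0.135 CPM in KO clone 1 and 0.118 and 0.0432 CPM in KO clone 2, against 7.30 and 7.74 CPM in WT. Both kept several scattered reads. Slc18b1, a vesicular polyamine transporter, kept reads in all 4 clone libraries and was 1 of 155 solute carriers at 3 CPM or more in both WT libraries (0.645%); with Slc40a1, left out by name, 2 (1.29%) met the thresholds, against 0.60% of all genes. Pcdh18, a protocadherin, had no clone read, against 4.24 and 3.84 CPM in WT, and neither did Gprin3, against 3.16 and 3.78 CPM in WT. Adam22, a catalytically inactive ADAM protein, and Tmem266, a voltage-sensing membrane protein, kept 2 and 7 clone reads.

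In the endocytic pathway, Ston2, a stonin adaptor of clathrin-mediated uptake, had 0.0441 and 0.0450 CPM in KO clone 1 and 0 and 0 CPM in KO clone 2, against 12.2 and 13.4 CPM in WT. Dnajc6, or auxilin, which uncoats clathrin vesicles, had no clone read, against 3.06 and 3.25 CPM in WT. Rasef, a Rab GTPase with EF hands, had no clone read either, against 6.61 and 6.55 CPM in WT. Esyt3, a tether between endoplasmic reticulum and plasma membrane, differed in keeping reads in every clone library, at 0.132 and 0.0899 CPM in KO clone 1 and 0.177 and 0.0432 CPM in KO clone 2, against 7.20 and 9.21 CPM in WT. Iqgap2, a cytoskeletal scaffold, Kif21b, a kinesin, Smtnl2, a smoothelin-like protein, and Fam110b, a centrosomal protein, also kept reads in all 4. Ube2ql1, an E2-like ubiquitin-conjugating protein, had no clone read, against 8.97 and 7.91 CPM in WT, and Peli2, a Pellino ubiquitin ligase of Toll-like receptor signalling, had 1. Bspry, a B-box and SPRY domain protein, had 0.220 and 0.0899 CPM in KO clone 1 and 0.177 and 0.0432 CPM in KO clone 2, against 21.2 and 27.7 CPM in WT, the highest WT level of the 53. It was 195-fold lower in the clones (95% counting interval 109 to 393). Ociad2, an OCIA domain protein, had 0 and 0 CPM in KO clone 1 and 0 and 0.0432 CPM in KO clone 2, against 11.8 and 11.8 CPM in WT. Gbp4, an interferon-inducible guanylate-binding protein, Apol7a, an apolipoprotein L, and Ankrd33b, an ankyrin-repeat protein, kept 10, 7 and 8 clone reads and averaged 4.25, 5.53 and 4.31 CPM in WT.

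The other lists held few silent genes, in numbers too small to set against the share over all genes. Of 59 interferon-induced genes, 46 were tested and 43 of them were lower, with a median log2 change of -2.52, and 0 of the 35 that were autosomal and at 3 CPM or more in both WT libraries met the thresholds of silence. That list holds neither Gbp4 nor Ly6e. The lysosome list had 44 of 61 tested genes lower, and 2 of 55 (3.64%) met the thresholds, Hexa and Rragd, both left out by name. Of 53 WT-expressed developmental transcription factors, 1 (Pitx1, 1.89%) was silent, and 44 of the 53 silent genes were in none of the 15 lists. Among 14 imprinted genes tested, 6 (42.9%) were lower and 4 (28.6%) higher, against 29.3% and 26.5% of all genes tested. Igf2r averaged 123 CPM in KO clone 1 and 39.4 CPM in KO clone 2, against 248 CPM in WT, and Gnas averaged 949 CPM in KO clone 1 and 1042 CPM in KO clone 2, against 546 CPM in WT.

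The clones were set against each other as a measure that the choice of genes limits, since both means had to be under 0.2 CPM. This rule largely set the number of calls in advance, so the number is no result about the genes. Of the 53 genes, 1 was lower and 0 were higher in KO clone 2 than in KO clone 1 by edgeR's quasi-likelihood test at an adjusted p under 0.05, while 10.7% of all genes tested were lower and 11.3% higher. This was Grhl3, with 0 and 0 reads in KO clone 2, against 3 and 3 reads in KO clone 1 (fitted log2 difference -4.39, adjusted p = 0.0337). DESeq2 called 0 of the 53, and 2 of them had an unadjusted p under 0.05 in edgeR. By clone, 18 genes had no read in KO clone 1 and 19 had none in KO clone 2.

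The sequence at the gene start was independent of the rule. A matching RefSeq promoter was found for 40 of the 53 genes; those not matched were Rbpms, Cpq, Aldh1l2, Mgat3, Ly9, Sema3b, Tmem266, B4galt6, Pitx1, Fam110b, Ccn3, Gbp4 and Kif21b. A promoter was called high-CpG at an observed over expected CpG ratio of 0.75 or more and a GC content of 55% or more, and low-CpG at a ratio under 0.48. Of the 40, 7 were high-CpG (Iqgap2, Rasef, Peli2, Ntn4, Ube2ql1, Bspry and Pcdh18), 17 intermediate and 16 low-CpG. The low-CpG promoters included those of Il18, Gsta1, Akr1c13, Hfe and Cyp2j6. By the GENCODE start, the windows of Rasef, Ntn4, Ociad2, Dnajc6 and Ston2 lay inside the gene, so their promoter class is uncertain. Genes with and without a clone read occurred in all 3 classes: Rasef, Ube2ql1 and Pcdh18 had high-CpG promoters and no clone read, Eomes, Hsd17b11, Gprin3 and Dnajc6 had intermediate promoters and no clone read, and Cyp2j6 had a low-CpG promoter and no clone read. Since 75.5% of the 53 genes had a promoter, under the 80% needed, a comparison of these promoters with those of other genes is void.

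The first 300 bases of the annotated transcript, which could be read for all 53 genes, were classed by the same limits. By this measure 21 genes (39.6%) were high-CpG, 15 (28.3%) intermediate and 17 (32.1%) low-CpG. It covers bases after the transcript start, so a gene's class could differ from that of its promoter, in either direction. Pdgfc and Acot1 were low-CpG by promoter and high-CpG here, while Pcdh18 went from high-CpG to intermediate and Gprin3 from intermediate to low-CpG. Of 9721 other autosomal protein-coding genes at 3 CPM or more in both WT libraries, 51.7% were high-CpG, 35.1% intermediate and 13.3% low-CpG. Lowly expressed genes had fewer CpGs in general: of the 3385 of these whose mean WT level lay within the range of the 53 genes, 42.3% were high-CpG, 37.9% intermediate and 19.8% low-CpG. Put the other way, the 53 genes made up 0.416% of the high-CpG genes, 0.438% of the intermediate and 1.30% of the low-CpG genes. These last shares take in genes of all WT levels and are not matched for level. The difference was not tested. Within the 53 genes the median WT level was 5.54 CPM in the high, 6.59 CPM in the intermediate and 5.54 CPM in the low-CpG class, and 4, 3 and 3 genes of these classes had no clone read.

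**Figure D2:**
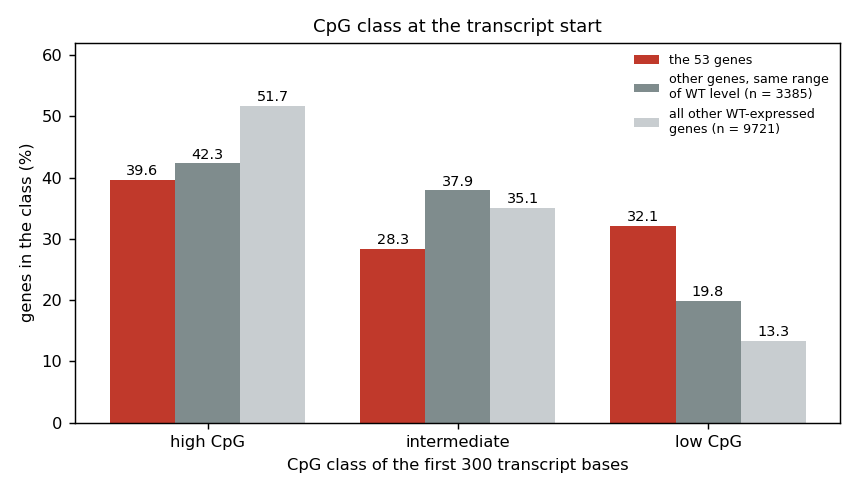
Share of genes (%) in each CpG class of the first 300 transcript bases, for the 53 genes, for other genes in the same range of WT level and for all other WT-expressed autosomal protein-coding genes. The low-CpG share is 32.1% in the 53 genes, against 19.8% and 13.3% in the other sets.

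DNA methylation was not measured in these libraries, but the genes that write, read and remove it were. Of 22 such genes tested, 6 (27.3%) were lower and 6 (27.3%) higher in the mean of both clones against WT, close to the 29.3% and 26.5% of all genes tested, and none was among the 53. Tet1, a dioxygenase that oxidises methylcytosine, fell just outside: it had 0 and 0 CPM in KO clone 1 and 0 and 0.0432 CPM in KO clone 2, against 3.06 and 2.30 CPM in WT, where the second library was under 3 CPM (adjusted p = 1.31e-07). Its relative Tet2 was lower, with 12.2 and 11.4 CPM in KO clone 1 and 8.48 and 11.2 CPM in KO clone 2, against 31.1 and 23.8 CPM in WT (log2 change -1.34 ± 0.144, adjusted p = 4.42e-06). Dnmt3b, a de novo methyltransferase, was higher, with a log2 change of 1.31 ± 0.187 (adjusted p = 5.48e-05), and so was Uhrf1, which brings maintenance methylation to replicated DNA, with 1.09 ± 0.105 (adjusted p = 1.47e-06). Dnmt1, the maintenance methyltransferase, averaged 562 ± 10.3 CPM in KO clone 1 and 634 ± 34.4 CPM in KO clone 2, against 530 ± 35.9 CPM in WT (SD, n = 2 libraries each), and its log2 change of 0.17 did not pass (adjusted p = 0.151). Dnmt3a, the other de novo methyltransferase, at 0.14 and Tet3 at 0.21 did not pass either (adjusted p = 0.354 and 0.144). Readers of methylation and their relatives went both ways: Mbd1 (-1.50), Zbtb4 (-0.63), Uhrf2 (-0.59) and Zbtb38 (-0.48) were lower, and Mbd2 (0.29) and Mbd3 (0.25) higher. Ahcy, which clears the by-product of methyl transfer, and Gadd45a were higher by 0.96 and 0.75. Idh1, Idh2, Mat2a, Mbd4, Tdg and Hells did not pass, with log2 changes between -0.42 and 0.10.

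The 53 genes were scattered over 17 of the 19 autosomes. Chromosomes 4, 9 and 13 held 7 each, chromosome 15 held 6 and chromosome 5 held 5, while chromosome 2 and chromosome 7, where Mki67 lies, held none. As a share of the WT-expressed genes this was 1.69% of 414 on chromosome 13 and 1.40% of 428 on chromosome 15. The order turns on the genes left out by name: with these, chromosome 15 had 8 silent genes (1.87%), chromosome 2 had 1 and chromosome 7 still had 0. On chromosome 13 the other WT-expressed genes had a median log2 change of 0.09, and those on chromosome 15 of -0.07, in the mean of both clones against WT. The silent genes of a chromosome were mostly far apart. Within 1 Mb of each other lay 2 pairs: Bspry and Akna on chromosome 4, 870 kb apart, and Tmem266 and Hykk on chromosome 9, 377 kb apart. Ccn3 lay 143 kb from Mal2, which was left out by name and had 0.0441 and 0 CPM in KO clone 1 and 0 and 0.0432 CPM in KO clone 2, against 73.0 and 58.9 CPM in WT.

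**Figure D3:**
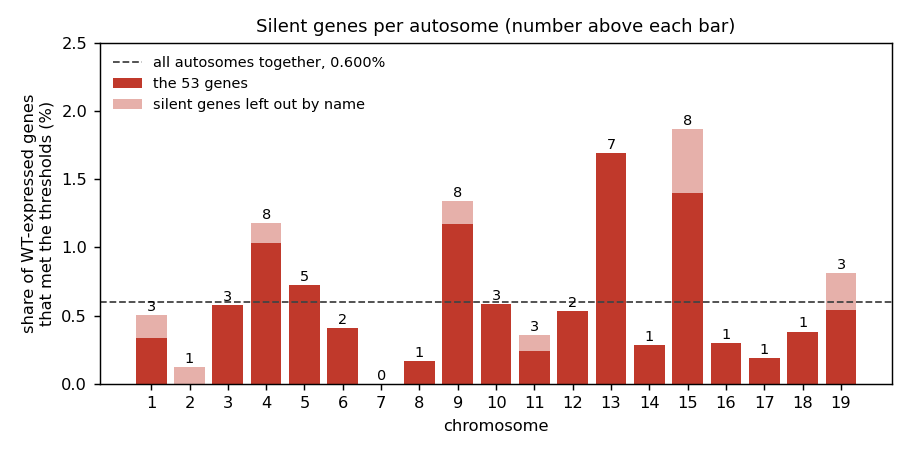
Share (%) of the WT-expressed genes of each autosome that met the thresholds, with their number above each bar; dark bars are the 53 genes and pale bars the 8 left out by name. The dashed line is the share of all 61 over all autosomes, 0.60%. Chromosome 13 has 1.69%, all from the 53 genes, and chromosome 15 has 1.87%, of which 1.40% is from the 53.

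The nearest genes on either side that reached 3 CPM in both WT libraries mostly stayed on. Of 105 such neighbours, at a median gap of 72.1 kb, 93 had 3 CPM or more in all 4 clone libraries and 6 were under 1 CPM in a clone library. These counts were not made over all WT-expressed genes, so they do not tell whether neighbours stayed on more or less often. By another measure, the larger clone mean, 61 of the 10170 WT-expressed autosomal genes were under 0.2 CPM. A further 39 were at 0.2 to 0.5 CPM and 71 at 0.5 to 1 CPM. In the mean of both clones against WT, 46 (43.8%) were lower, 19 (18.1%) higher and 40 not called, with a median log2 change of -0.18, against 30.3% lower and 29.4% higher of the 10117 other WT-expressed autosomal genes, with a median of -0.01. Whether these shares differ was not tested. For 16 of the 53 genes no neighbour was lower, and for 10 both were.

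At single loci the neighbour of a silent gene could be lower or higher in the clones. Hdhd3, a phosphatase-domain protein 1.71 kb from Bspry, had 5.64 and 4.68 CPM in KO clone 1 and 5.83 and 4.45 CPM in KO clone 2, against 9.57 and 9.92 CPM in WT (log2 change -0.93 ± 0.163, adjusted p = 0.000302). Sel1l, an adaptor of endoplasmic reticulum degradation 17.7 kb from Ston2, had 79.7 and 69.9 CPM in KO clone 1 and 83.8 and 80.9 CPM in KO clone 2, against 132 and 125 CPM in WT (-0.71 ± 0.0970, adjusted p = 3.81e-05). These neighbours were lower in every clone library than in either WT library and yet were far from silent. Others were higher: Hist1h1c, a linker histone 28.0 kb from Hfe, rose by 0.73 ± 0.138 (adjusted p = 0.000523), and Stard3nl, 196 kb from Epdr1, by 0.56 ± 0.108 (adjusted p = 0.000654). Around the 20 genes most abundant in WT, the further lower neighbours were Tmem144 (-2.62), Cwh43 (-2.29), Vangl2 (-1.61), Cnnm2 (-1.44), Hs3st1 (-1.36), Washc4 (-1.17), Cep70 (-0.93), Sdc2 (-0.73), Anxa1 (-0.58), Golga4 (-0.57), Wbp1l (-0.49), Hook1 (-0.46), Klhl8 (-0.43), Arf3 (-0.33) and Ociad1 (-0.28). The further higher ones were Hist1h4c (0.93), Trim27 (0.91), D10Wsu102e (0.37), Gtf2e2 (0.36), Med10 (0.35) and Wdr1 (0.29). Their gaps to the silent gene ran from an overlap, of D10Wsu102e with Aldh1l2, to 1560 kb, of Trim27 from Epdr1.

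The 5 neighbours with a log2 change below -3 were P4ha2, Ctso, Gbp9, Gsta4 and Apol9a, and 3 of these were relatives of the silent gene beside them. Gbp9, which overlaps Gbp4, had 0.926 and 0.495 CPM in KO clone 1 and 0.236 and 0.432 CPM in KO clone 2, against 10.8 and 14.6 CPM in WT. Gsta4, 21.3 kb from Gsta1, had 7.10 and 8.86 CPM in KO clone 1 and 16.6 and 14.8 CPM in KO clone 2, against 153 and 152 CPM in WT (log2 change -3.77 ± 0.110, adjusted p = 2.46e-11). Apol9a, 4.68 kb from Apol7a, had 1.54 and 1.71 CPM in KO clone 1 and 0.824 and 1.34 CPM in KO clone 2, against 13.0 and 14.5 CPM in WT (-3.35 ± 0.180, adjusted p = 6.10e-09). In these 3 family clusters the related neighbour was far lower without falling under 0.2 CPM. The others were no relatives: P4ha2, a collagen prolyl hydroxylase 172 kb from Acsl6, had 0.0881 and 0.0450 CPM in KO clone 1 and 0.530 and 0.345 CPM in KO clone 2, against 4.73 and 5.67 CPM in WT, and Ctso, a cysteine cathepsin 719 kb from Pdgfc, had 0.220 and 0.360 CPM in KO clone 1 and 0.236 and 0.561 CPM in KO clone 2, against 8.88 and 9.80 CPM in WT. At the other end, Net1, a RhoA exchange factor 273 kb from Akr1c13, was higher by 0.98 on the log2 scale.

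**Figure D4:**
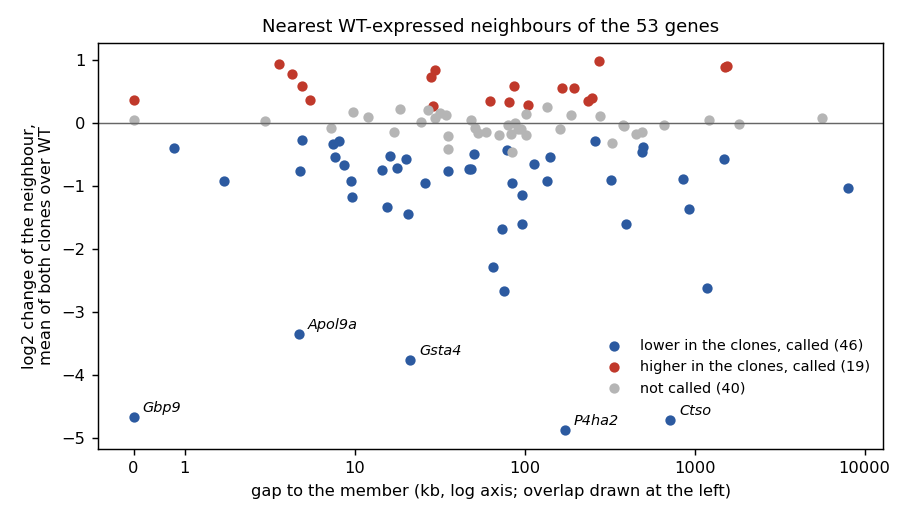
Log2 change of each of the 105 neighbours (mean of both clones over WT) against its gap to the silent gene in kb, on a log axis. Called neighbours (46 lower, 19 higher) occur at short and long gaps, and the 5 below -3 are named.

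For 35 of the 53 genes a paralogue was found, as a protein with at least 30% identity over at least 50% of both sequences, and for 18 none. The closest paralogue is here the one with the highest BLAST score, which need not have the highest identity. For 28 genes at least 1 such relative stood at 3 CPM or more in all 4 clone libraries. The closest paralogue reached 3 CPM in some library for 18 genes, and of these closest paralogues 6 were lower, 5 higher and 7 not called in the mean of both clones against WT, with a median log2 change of 0.06. These shares are close to the 29.3% lower and 26.5% higher of all genes tested. Few were close copies: 3 closest paralogues had 90% identity or more (Akr1c12 at 94.1%, Acot2 at 93.7% and Gm3776, beside Gsta1, at 99.6%), and reads that fit both copies may have been lost or split there, so the counts of Akr1c13, Acot1 and Gsta1 are uncertain.

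Most expressed paralogues stayed on in the clones. Ccn2, another CCN matricellular protein, had 99.7 and 106 CPM in KO clone 1 and 166 and 157 CPM in KO clone 2, against 39.3 and 47.9 CPM in WT (log2 change 1.56 ± 0.115, adjusted p = 1.05e-07). Fam110a had 31.1 and 31.4 CPM in KO clone 1 and 45.3 and 45.5 CPM in KO clone 2, against 12.0 and 14.8 CPM in WT (1.48 ± 0.124, adjusted p = 3.80e-07). Grhl2, the relative of Grhl3 and itself an epithelial regulator, was higher by 0.60 ± 0.102 (adjusted p = 0.000239), and Iqgap1, the widely expressed relative of Iqgap2, by 0.46 ± 0.0951 (adjusted p = 0.00102). Acsl1, a relative of Acsl6, was higher by 0.35 (adjusted p = 0.0272). For each of these higher paralogues, every clone library was above both WT libraries. Ldha, the muscle-type lactate dehydrogenase subunit, had 435 and 516 CPM in KO clone 1 and 849 and 676 CPM in KO clone 2, against 499 and 498 CPM in WT, and its log2 change of 0.27 ± 0.115 did not pass (adjusted p = 0.0590), while DESeq2 called it at 0.29. Gak, the ubiquitous relative of auxilin, B4galt5, Trpm7, Gmpr2, Ston1 and Esyt2 did not pass either, with log2 changes between -0.05 and 0.22.

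Of the 6 lower among these 18 closest paralogues, Mr1, the class I-like protein that presents vitamin B metabolites and the best-scoring relative of Hfe, had the lowest log2 change, with 0.309 and 0.539 CPM in KO clone 1 and 0.294 and 0.259 CPM in KO clone 2, against 10.8 and 8.68 CPM in WT (log2 change -4.80 ± 0.238, adjusted p = 3.15e-09). Class I genes of the H2 complex, some of slightly higher identity to Hfe, did not fall as far: H2-K1 was at 0.01, H2-D1 at 0.00 and H2-Q10 at -0.03, none past the test, and 4 were lower, H2-Q4 at -0.46, H2-T23 at -0.58, H2-M3 at -0.66 and H2-T22 at -1.45. Reads of these near-identical copies may be split between them. Peli1, a relative of Peli2, and Kif21a, a relative of Kif21b, were lower by 0.78 and 0.40 on the log2 scale. Acot2, the mitochondrial relative of Acot1, had 8.24 and 7.24 CPM in KO clone 1 and 6.30 and 6.86 CPM in KO clone 2, against 21.5 and 14.9 CPM in WT (-1.34 ± 0.157, adjusted p = 9.51e-06). Wnt10a and Ntn1 were lower in the mean of both clones by 0.76 and 0.84 on the log2 scale, and both differed between the clones. Wnt10a had 12.3 and 12.5 CPM in KO clone 1 and 34.6 and 28.9 CPM in KO clone 2, against 25.8 and 41.0 CPM in WT, and the difference of KO clone 2 against KO clone 1 was 1.35 (adjusted p = 0.000559). Ntn1 had 4.72 and 3.73 CPM in KO clone 1 and 13.0 and 10.3 CPM in KO clone 2, against 8.68 and 15.9 CPM in WT, with a difference between the clones of 1.46 (adjusted p = 0.00312); without the second WT library its mean change was no longer called. In these pairs Wnt10b and Ntn4 were near 0 in both clones, and Wnt10a and Ntn1 in neither.

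In some families further relatives were at or near silence too. Of the other guanylate-binding proteins related to Gbp4, Gbp7 had 0.176 and 0.270 CPM in KO clone 1 and 0 and 0.130 CPM in KO clone 2, against 4.93 and 4.84 CPM in WT, and missed the rule through KO clone 1. Gbp3 had 0.176 and 0.0899 CPM in KO clone 1 and 0.118 and 0.130 CPM in KO clone 2, against 2.07 and 4.07 CPM in WT, and missed the rule through its first WT library. Gbp2 was lower but above the limit of silence, with 1.41 and 1.39 CPM in KO clone 1 and 0.707 and 1.34 CPM in KO clone 2, against 25.0 and 27.4 CPM in WT. Dhrs3, a relative of Hsd17b11, averaged 0.245 CPM in KO clone 1 and 0.0942 CPM in KO clone 2, against 5.24 CPM in WT. Sema3c, a relative of Sema3b, had no read in any clone library, against 3.65 and 2.95 CPM in WT, and missed the rule through its second WT library.

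**Figure D5:**
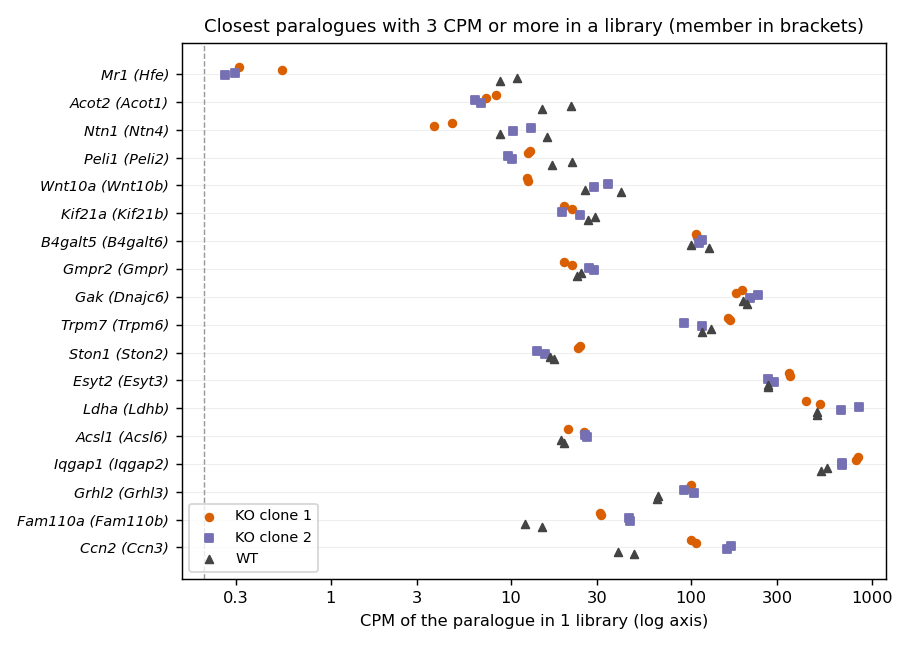
CPM in each library of the 18 closest paralogues that reach 3 CPM in some library, on a log axis, in order of their log2 change, with the silent gene in brackets. Mr1 comes nearest to the 0.2 CPM line in the clones, and Ccn2 and Fam110a stand highest above their WT libraries.

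Markers of other cell types were read as a check. The summed level of 14 fibroblast and endothelial markers was 24.2 to 25.3 CPM in KO clone 1 and 27.3 to 28.9 CPM in KO clone 2, against 49.8 to 54.3 CPM in WT, with 5, 5 and 7 markers at 0. Col3a1, Lum, Kdr and Cdh5 were at 0 in all 6 libraries. Most of the difference was Pdgfra, which averaged 14.4 CPM in KO clone 1 and 14.4 CPM in KO clone 2, against 39.3 CPM in WT. The part of this in the loss of single genes was not tested.

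Reads on the other strand of the 53 genes numbered 91 and 87 in KO clone 1 and 57 and 56 in KO clone 2, against 57 and 88 in WT. Scaled to library size they summed to 4.01 and 3.91 CPM in KO clone 1 and 3.36 and 2.42 CPM in KO clone 2, against 5.62 and 5.20 CPM in WT. Bspry had 22, 25, 19 and 9 of these in the clone libraries, against 22 and 34 in WT, and Eomes had 21, 6, 9 and 8 in the clones, against 6 and 5 in WT. When reads of both strands were counted together, 46 of the 53 genes still met the thresholds, and Adam22, Bspry, Eomes, Esyt3, Kif21b, Ntn4 and Rbpms did not. Genes just inside the thresholds were Dnajc6, Peli2 and Bdh2, whose lower WT library had 3.057, 3.071 and 3.130 CPM, and Ntn4, Trpm6 and Slc18b1, whose higher clone mean was 0.1997, 0.1785 and 0.1747 CPM. Just outside were Hpse, Xkr5 and Trim71, at 2.959 CPM each in the lower WT library, and Serpinb6b, Lhpp and Tgfbr3, with a higher clone mean of 0.2001, 0.2010 and 0.2100 CPM. The reverse pattern, silence in WT and 3 CPM or more in every clone library, was met by 2 autosomal genes, Tbcel and Plcd1, both on chromosome 9. Plcd1, a phospholipase C, had 6.08 and 4.50 CPM in KO clone 1 and 5.65 and 5.78 CPM in KO clone 2, against 0 and 0.0590 CPM in WT.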

How the data were processed

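RNA of 6 libraries was analysed in 3 groups of 2 (KO clone 1, KO clone 2 and WT). The authors deposited 1 table of raw read counts for each library, with no normalization. Per the submitters' processing notes, reads were aligned with STAR 2.6.0c to GRCm38. Column 4, the reverse-strand count, held 92.3% to 95.7% of the stranded gene reads and was used. Gene reads numbered 10428970 to 22658499 per library, and the libraries of each pair differed beyond counting noise (chi-square over its degrees of freedom 17.7 to 78.8).

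Symbols, positions, transcripts and translated proteins came from GENCODE mouse release 21, which matched 54079 of 54146 IDs. The selection of the 53 genes used edgeR 4.0.16's TMM-scaled CPM. The quasi-likelihood test was fitted to all 6 libraries and the 13755 genes that filterByExpr kept (R 4.3.3), with 1 term per group, which leaves 3 residual degrees of freedom. Calls were made at an adjusted p (Benjamini-Hochberg) below 0.05. This test was run on simulated counts before use. DESeq2 1.42.0 and the other alternatives are given in the closing section. Paralogues were found with BLAST 2.17.0. A fold of a gene with no clone read is a bound from 3 reads over the 4 clone libraries; bounds, floors and exact 95% ratio intervals cover counting error only.

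The genes and all 15 lists were chosen with earlier results of these data known. Named in the text were the 20 most abundant genes, those in a list, those within 1 Mb of another, those with an expressed closest paralogue, these paralogues, called neighbours of the 20, genes at the thresholds and the DNA methylation genes, of which 1 is not reported here; the other genes named were chosen after their values were seen, as was the measure on transcript starts.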

Additional observations from a re-analysis of the deposited data

Results flagged for a closer look

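Each result here is a log2 difference of KO clone 2 against KO clone 1. It passed edgeR's quasi-likelihood test at an adjusted p under 0.05, so that, Grhl3 apart, the effect against WT differed between the clones. Of the silent genes, Grhl3 passed, at a fitted -4.39, on 0 reads in KO clone 2 against 6 in KO clone 1. DESeq2 called 0 of the silent genes in this comparison. Their choice required a mean under 0.2 CPM in each clone, so the fitted value of Grhl3 cannot tell whether its effect differed. Of the neighbours named above, P4ha2 (2.56), Tmem144 (1.00), Gsta4 (0.98), Vangl2 (0.72) and Trim27 (0.35) were higher in KO clone 2, and Hook1 (-1.01), Cwh43 (-0.87), Anxa1 (-0.74), Washc4 (-0.65) and Cep70 (-0.63) were lower. Neighbours not named above passed too, in both directions, among them Gabbr1 beside Zfp57 (-1.68) and Dap beside Ankrd33b (0.82). Of the closest paralogues, Ntn1 (1.46), Wnt10a (1.35), Ldha (0.68), Ccn2 (0.65), Fam110a (0.54) and Gmpr2 (0.44) were higher in KO clone 2, and Ston1 (-0.70), Trpm7 (-0.66) and Esyt2 (-0.34) were lower. Further relatives also passed in both directions and are not all listed. Among them were Gbp2b (-0.88), Wnt9a, a relative of Wnt10b (-0.89), and Rdh10, a relative of Hsd17b11 (1.10). Of the DNA methylation genes, Mbd3 (0.51) and Idh2 (0.44) were higher in KO clone 2, and Hells (-0.59), Uhrf2 (-0.55), Zbtb4 (-0.51) and Uhrf1 (-0.45) were lower. No sample stood apart by a test of single values, since groups of 2 allow none.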

How the results depend on the processing

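The number of silent genes follows the thresholds. As a share of the WT-expressed autosomal genes it was 1.48% at a WT minimum of 1 CPM, 0.304% at 5 CPM, 0.344% at a clone mean under 0.1 CPM and 0.905% under 0.5 CPM, against 0.521% as reported. In this order of settings, genes within 1 Mb of another numbered 46, 0, 0 and 12, lower neighbours 119, 24, 28 and 70, genes with a paralogue 107, 17, 21 and 60, and lower expressed paralogues 17, 3, 2 and 14. High-CpG promoters numbered 4 at 5 CPM, 4 under 0.1 CPM and 12 under 0.5 CPM, and 15 with limits of 0.6 and 50% GC in place of 7. With unstranded counts 2 genes lay within 1 Mb, and within 250 kb 0 did. The 900-base promoter window was not run.

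With 1 library left out, the silent genes numbered 54 to 66 (0.531% to 0.636%), high-CpG promoters 5 to 8, the high-CpG share of transcript starts was 36.9% to 42.9%, genes within 1 Mb numbered 2 to 8, lower neighbours 41 to 55, genes with a paralogue 35 to 44 and lower paralogues 5 to 9. Calls numbered 4994 to 6975 for KO clone 1 against WT, 5632 to 7082 for KO clone 2 against WT, 6764 to 7294 for the mean, and 620 to 4442 for KO clone 2 against KO clone 1, where 3028 were called with all libraries and 1207, 982, 620 and 1707 without a library of either clone. The causes were not tested. The fit takes the spread of a library left alone in its group from the other groups.

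The replicate numbers did not pair the libraries (correlations of deviations -0.156, 0.0819 and 0.00474). With the replicate block, 7390 genes were called in the mean comparison, against 7673 without it, and 44 neighbours were lower, against 46.

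The small log2 changes of 6 genes, none called with all libraries, turned round. Gmpr2 was at -0.08 with unstranded counts, B4galt5 at 0.02 and Idh2 at 0.03 without a filter on low counts. With 1 library left out, Gmpr2 ranged over -0.02 to 0.06, B4galt5 over -0.19 to 0.13, Trpm7 over -0.00 to 0.19, Mat2a over -0.05 to 0.28, Idh2 over -0.16 to 0.10 and Hells over -0.19 to 0.01. Depth limits the clones: a gene with no read in any clone library may be anywhere under the floor of 3 reads, and the WT libraries are the shallowest.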
